A study of Mus musculus with 4 samples.

Results

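Vascular smooth muscle cells (VSMC), the contractile cells that wrap arteries and the walls of the great vessels, made up 104 of the 21035 single cells kept here from 4 regions of the fetal mouse heart. They were chosen by their own transcripts, as barcodes with at least 500 genes, at least 2 UMIs (unique molecular identifiers, each 1 counted RNA molecule) of Myh11, at least 5 UMIs each of Acta2 and Tagln, and 0 UMIs of the pericyte gene Kcnj8. Cardiomyocytes were kept out by a muscle score under 1.5, the mean of ln(1 + UMIs per 10000) over Tnnt2, Myh6, Ttn, Actn2 and Ryr2. The 4 regions were microdissected from wild-type CD1 mouse hearts at embryonic day 16.5, carried no transgene or treatment, and gave 1 10x Genomics 3' library each: the sinoatrial node (SAN) region, the region of the atrioventricular node and His bundle (AVN/His), and, from each ventricle, the region of the bundle branch and Purkinje fibers (left and right BB/PF). The number of hearts behind a library is not given in the labels. The regions held 24 VSMC of 5934 kept barcodes (SAN), 44 of 5645 (AVN/His), 7 of 5100 (left BB/PF) and 29 of 4356 (right BB/PF). VSMC were compared with pericytes (358 cells, with Kcnj8 and Pdgfrb) and fibroblasts (1577 cells, with Tcf21 and Pdgfra) of the same libraries.

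Smooth muscle contracts when calcium activates myosin light chain kinase, which phosphorylates the regulatory light chain of smooth muscle myosin on filaments of alpha actin. In arteries these cells also lay down elastin, receive Notch signals from the endothelium, and set vessel width through potassium channels and receptors for vasoactive hormones. Pericytes sit on capillaries, share much of this origin and many markers, and in the heart can give rise to coronary smooth muscle.

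The 3 genes of the rule are given as a description, since they chose the cells. Myh11, the smooth muscle myosin heavy chain, stood at 358, 499, 598 and 618 CPM (UMIs of the gene per 1000000 UMIs of all genes) in the summed VSMC of the SAN, AVN/His, left and right regions, against 3.50 to 10.4 in pericytes and 0 to 0.575 in fibroblasts, both of which could hold at most 1 UMI by their own rule. Acta2, the vascular alpha actin, stood at 6217, 7906, 7954 and 9806 CPM in VSMC, against 635 to 2090 in pericytes and 205 to 393 in fibroblasts. Tagln, an actin-binding protein of smooth muscle, stood at 3946, 4245, 3503 and 5009 in VSMC, against 100 to 988 in pericytes and 52.2 to 199 in fibroblasts. At the edge of the rule, 34 members held exactly 2 UMIs of Myh11 and 70 held 3 or more. Just outside it lay 55 cells with 1 UMI of Myh11 that met every other condition (34, 18, 1 and 2 by region), and 16 cells with Kcnj8 (1, 3, 2 and 10). The 55 cells held 242 CPM of Cnn1 and 2243 of Myl9, the 34 members with 2 UMIs held 337 and 2912, and the 16 cells with Kcnj8 held 101 and 1598. The edge was therefore not a gap in these levels.

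**Figure D1:**
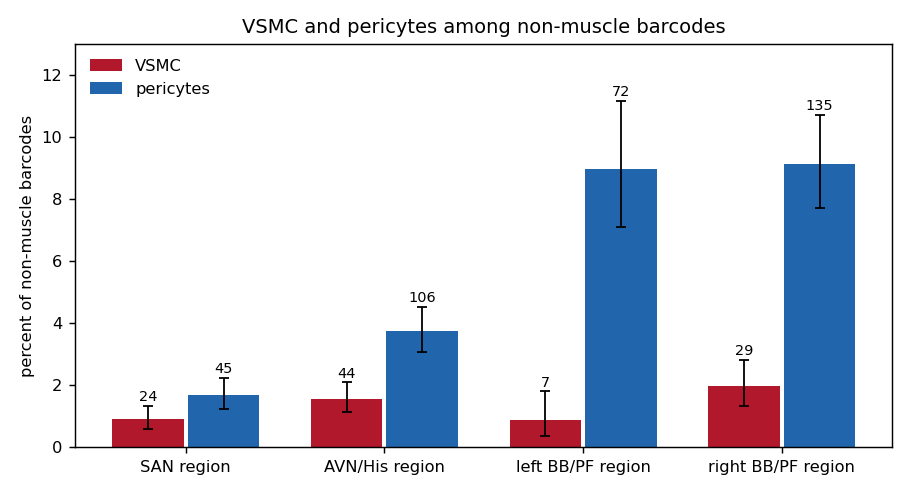
VSMC (red) and pericytes (blue) as a percent of the barcodes under the muscle score in each library, with exact binomial 95% intervals and the number of cells above each bar. VSMC lie between 0.872 and 1.96%, and pericytes range from 1.67% in the SAN region to 9.13% in the right BB/PF region.

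VSMC were 0.889% (95% interval 0.570 to 1.32) of the non-muscle barcodes of the SAN region, 1.56% (1.13 to 2.08) in the AVN/His region, 0.872% (0.351 to 1.79) in the left and 1.96% (1.32 to 2.81) in the right BB/PF region. The interval of the left library, with 7 cells, overlaps all others, and dissection and dissociation also set such shares. Pericytes were 1.67, 3.75, 8.97 and 9.13% in the same order, so 24 VSMC stood beside 45 pericytes in the SAN library and 7 beside 72 in the left. Median depth was 6559, 6249, 5975 and 7228 UMIs per VSMC (3571 to 46299 over all cells), and the summed VSMC held 206546, 344681, 48527 and 221596 UMIs. The UMIs of 1 cell, the deepest VSMC of the SAN library, were 46299 of the 206546 there. A Scrublet score of at least 0.2 was reached by 1 VSMC. At least 2 markers of another cell type were held by 2 VSMC, of which the SAN one was this deepest cell. Over 1% hemoglobin was held by 1 VSMC, a SAN cell in which 4130 of 6225 UMIs were hemoglobin. All these cells stayed in the main values. None of the 104 barcodes was a VSMC in another library, although 3 of them, and 230 of all kept barcodes, were also kept in another one.

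Markers of other cell types were summed in VSMC as well. The 8 endothelial markers summed to 87.1, 78.3, 20.6 and 31.6 CPM in VSMC of the 4 regions, with Pecam1 in 1, 2, 0 and 1 cells, and the 6 macrophage markers to 4.84, 5.80, 0 and 0. The 11 cardiomyocyte markers summed to 871 in the SAN, 1166 in the AVN/His, 3050 in the left and 1178 in the right region in VSMC, against 640 to 2704 in pericytes, of which the left pericytes held 717. The 5 erythroid markers summed to 21148, 627, 1010 and 844 in VSMC, against 2423, 3975, 24796 and 18924 in pericytes, and 4130 of the 4361 hemoglobin UMIs of SAN VSMC came from 1 cell. The 16 fibroblast markers summed to 6759, 2486, 433 and 636 in VSMC, against 19245, 16032, 9629 and 12385 in fibroblasts, and Tcf21, which defines those cells here, had UMIs in 3, 5, 0 and 1 VSMC. Without its deepest cell the SAN sum of fibroblast markers was 4849. The 17 pericyte markers summed to 2377, 5176, 7645 and 7541 in VSMC, against 4215, 8056, 8184 and 9298 in pericytes. The part of these transcripts in the differences between classes was not tested.

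Contractile genes outside the rule were higher in VSMC than in pericytes. Of 34 listed genes of the contractile apparatus, 3 are of the rule and 29 others passed the filter on low counts; 23 of these rose in VSMC, 1 fell and 5 did not pass (median log2 fold change 1.22, against -0.00 over all 4857 genes tested). Over all genes, 236 rose, which is 4.86%, and 131 fell, which is 2.70%, or 7.56% in either direction. The test was edgeR's quasi-likelihood test on summed counts of the 3 libraries with at least 10 cells of each class, with the library as a blocking term, and p-values were adjusted by Benjamini and Hochberg's method (threshold 0.05). Its p-values measure the spread between 3 libraries of different regions, which may share some of their animals. Cells picked for Myh11, Acta2 and Tagln will tend to hold the genes expressed with them, so these folds are no independent evidence that the cells are smooth muscle. Without the AVN/His library, which left 2 libraries and 1 residual degree of freedom, 9 of the list rose.

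Lmod1, leiomodin 1, which nucleates actin filaments in smooth muscle, stood at 165, 194, 165 and 212 CPM in VSMC of the SAN, AVN/His, left and right regions, against 7.09, 5.18, 1.75 and 0 in pericytes. All 4 VSMC values lay above all pericyte values, and the log2 fold change was 5.75 ± 0.47 (SE, n = 3 libraries, edgeR adjusted p = 0.00022). Cnn1, the actin-binding calponin of differentiated smooth muscle, stood at 295, 276, 144 and 208 in VSMC, against 54.4, 14.3, 0 and 3.13 in pericytes (3.85 ± 0.42, edgeR adjusted p = 0.00061). Its lowest VSMC value, in the left library, rests on 7 UMIs. Actg2, the gamma actin typical of visceral smooth muscle, was also abundant, at 993, 931, 1092 and 1286 in VSMC, against 225, 57.0, 50.7 and 50.1 in pericytes (3.61 ± 0.39, edgeR adjusted p = 0.00059). Synpo2, an actin-bundling protein, and Ppp1r12b, a targeting subunit of myosin phosphatase, rose by log2 fold changes of 3.16 and 3.59. These 5 genes passed without each library in turn.

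The regulatory light chain and its kinase varied more between regions. Myl9, the regulatory light chain, stood at 1883, 3357, 2823 and 3994 CPM in VSMC, against 525, 380, 241 and 272 in pericytes (log2 fold change 2.99 ± 0.32, edgeR adjusted p = 0.00057). Mylk, the kinase that phosphorylates it, stood at 228, 772, 865 and 1412 in VSMC, against 89.8, 188, 196 and 209 in pericytes (2.14 ± 0.23, edgeR adjusted p = 0.00061). The SAN value of Mylk in VSMC was only slightly above the highest pericyte value, and the right value was the highest. Not every actin-associated gene moved: Smtn, smoothelin, stood at 87.1, 95.7, 103 and 63.2 in VSMC, against 56.7, 51.8, 59.4 and 43.9 in pericytes (0.72 ± 0.24, edgeR adjusted p = 0.13), and Des, the intermediate filament desmin, had a log2 fold change of 0.57 ± 0.28 (edgeR adjusted p = 0.32). Tagln2, a broadly expressed relative of transgelin that is not specific to smooth muscle, was the 1 gene of the list that fell, at 726, 589, 350 and 560 in VSMC, against 1210, 1134, 1247 and 1177 in pericytes (-0.90 ± 0.18, edgeR adjusted p = 0.016). Tagln2 had the same direction without the AVN/His library but did not pass (edgeR adjusted p = 0.25).

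**Figure D2:**
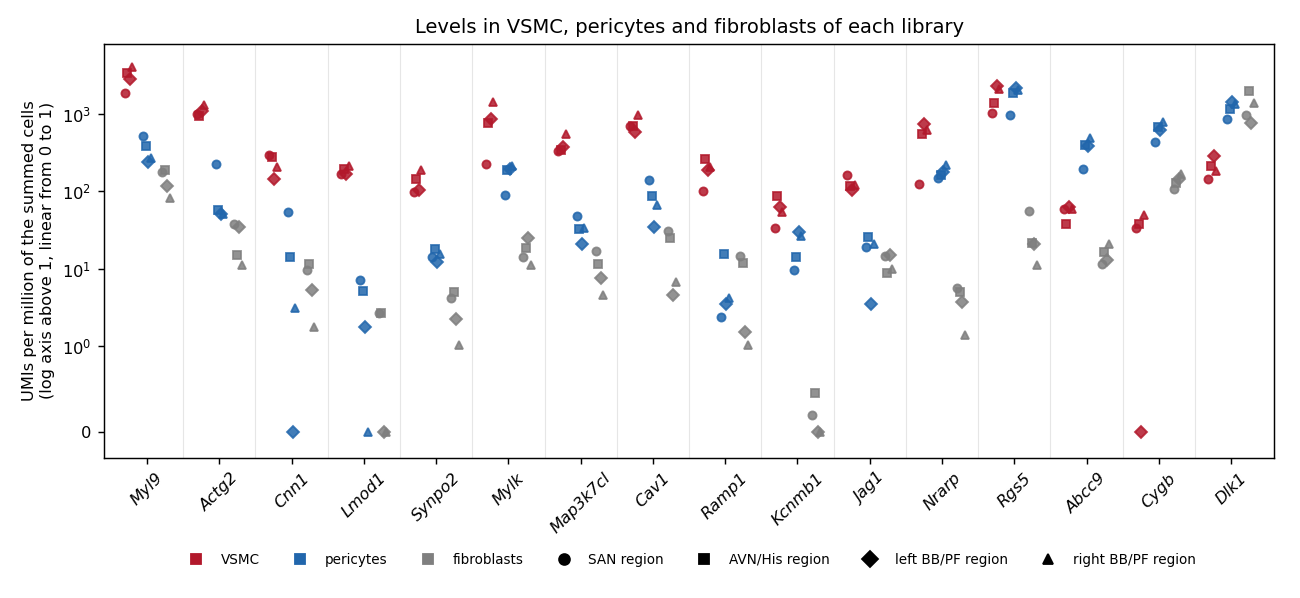
CPM (log axis above 1) of 16 genes in the summed VSMC (red), pericytes (blue) and fibroblasts (gray), with 1 symbol per library. For Lmod1, Actg2 and Myl9 all VSMC symbols lie above those of both other classes, while Rgs5 overlaps pericytes and Abcc9, Cygb and Dlk1 lie below them.

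Single cells gave the same order at a coarser grain. A Lmod1 UMI was found in 58.3, 75.0, 71.4 and 75.9% of VSMC by region (45.8, 36.4, 71.4 and 44.8% after each cell was thinned to 3000 UMIs), in 4.44, 1.89, 1.39 and 0% of pericytes, and in 0.680, 3.28, 0 and 0% of macrophages, which should lack it. For Cnn1 the shares were 91.7, 61.4, 57.1 and 58.6% of VSMC (62.5, 43.2, 42.9 and 41.4% thinned), 13.3, 5.66, 0 and 2.22% of pericytes, and 2.04, 9.84, 0 and 0% of macrophages. Macrophages had median depths of 5877, 7106, 5987 and 7049 UMIs, close to VSMC, and their shares are the background measured here. Free RNA and doublets were not told apart in it, since macrophages were not screened for doublets (in the SAN library 16 of 147 held a Tcf21 UMI and 18 a Pecam1 UMI). The Cnn1 share of AVN/His pericytes, 5.66%, was under that of the macrophages.

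Many contractile genes are driven by serum response factor, which binds the CArG box. RefSeq promoter sequences (GRCm38.p6, 250 bases before to 50 after a start) were searched for an exact CArG box, whose pattern reads the same on both strands. It was found in 535 of 32851 promoters (1.63%). Counted by gene, it was found for 488 of 27025 genes (1.81%) and for 5 of the 30 contractile genes with an entry (16.7%). Among genes tested against pericytes with an entry, 11 of 179 that rose held one (6.15%), 3 of 93 that fell (3.23%), and 79 of all 3758 (2.10%). The 5 contractile genes and Fbxl22, one of the 10 genes with the lowest p among those that rose, are shown because all 6 rose in VSMC; the box is in capitals and its first base is counted from the start of transcription.
Myl9 (chr2:156775278-156775337, + strand, box at -161): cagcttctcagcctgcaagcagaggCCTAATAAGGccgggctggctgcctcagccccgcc
Myl6 (chr10:128493025-128493084, - strand, box at -50): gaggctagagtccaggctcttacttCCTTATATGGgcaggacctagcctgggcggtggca
Cnn2 (chr10:79988519-79988578, + strand, box at -56): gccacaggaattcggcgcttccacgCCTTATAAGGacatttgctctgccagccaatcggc
Vcl (chr14:20929148-20929205, + strand, box at -227): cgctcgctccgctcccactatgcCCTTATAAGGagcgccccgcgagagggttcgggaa
Filip1l (chr16:57549155-57549214, + strand, box at -62): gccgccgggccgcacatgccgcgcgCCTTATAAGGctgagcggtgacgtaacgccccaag
Fbxl22 (chr9:66514781-66514840, - strand, box at -222): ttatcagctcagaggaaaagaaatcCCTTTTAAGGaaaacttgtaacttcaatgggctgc

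The same box, letter for letter, stands in Cnn2, Vcl and Filip1l. These 3 genes, calponin 2, the focal adhesion protein vinculin and filamin A interacting protein 1 like, had log2 fold changes of 1.09, 1.13 and 1.26 over pericytes, and Myl6, the essential light chain, of 1.19. Without the AVN/His library Cnn2, Vcl, Filip1l and Myl6 did not pass (edgeR adjusted p = 0.11, 0.091, 0.097 and 0.21). Fbxl22, an F-box protein of the muscle Z-disc, stood at 43.6, 273, 165 and 316 CPM in VSMC, against 9.46, 18.1, 5.24 and 7.31 in pericytes (4.24 ± 0.38, edgeR adjusted p = 0.00027). A match is a string in a window and was not tested for binding. The windows of Acta2 and Cnn1 held no exact match, and Myh11, Tagln and Actg2 had no entry.

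Other genes with the lowest p among those that rose over pericytes were mostly not of the contractile list. Map3k7cl, a gene named for its likeness to the end of the kinase Map3k7, stood at 334, 337, 371 and 555 CPM in VSMC, against 47.3, 32.4, 21.0 and 33.4 in pericytes (log2 fold change 3.47 ± 0.23, edgeR adjusted p = 8.6e-05). Cav1, the scaffold of caveolae, stood at 697, 705, 577 and 970 in VSMC, against 139, 85.5, 35 and 65.8 in pericytes (3.11 ± 0.25, edgeR adjusted p = 0.00022). Both sets of values were apart in every library. Cxcl13, a B cell chemokine, stood at 72.6, 95.7, 61.8 and 81.2 in VSMC, against 2.36, 1.30, 1.75 and 4.18 in pericytes, with 0 UMIs in macrophages (4.82 ± 0.44, edgeR adjusted p = 0.00027). Adarb1, an enzyme that edits adenosines in RNA, and Cxcl12, the ligand of Cxcr4, rose by 3.71 and 2.46. These 5 genes, too, passed without each library in turn.

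Notch genes moved in both directions. Of 10 tested against pericytes, 3 rose and 1 fell (median 0.25), beside 4.86% and 2.70% of all genes. Against fibroblasts 6 of 13 rose and 2 fell (median 0.33), beside 5.72% and 4.62% of all genes. Without the AVN/His library 1 rose over pericytes, and 1 fell against fibroblasts without the SAN or without the AVN/His library. The ligand Jag1, which signals between neighboring smooth muscle cells, stood at 160, 116, 103 and 122 CPM in VSMC, against 18.9, 25.9, 3.50 and 20.9 in pericytes and 14.4, 8.78, 15.0 and 9.75 in fibroblasts. It did not overlap either class, with log2 fold changes of 2.53 ± 0.27 over pericytes (edgeR adjusted p = 0.00059) and 3.58 ± 0.24 over fibroblasts (edgeR adjusted p = 0.00011). The receptor Notch3 overlapped pericytes, with 145, 281, 309 and 343 in VSMC, 144, 181, 161 and 203 in pericytes and 22.6 to 47.9 in fibroblasts (0.52 ± 0.19 over pericytes, edgeR adjusted p = 0.15).

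The Notch targets Hey2 and Nrarp rose over both classes. Nrarp, a feedback inhibitor of the pathway, stood at 126, 554, 742 and 627 in VSMC, against 147, 161, 175 and 217 in pericytes and 1.39 to 5.56 in fibroblasts. The SAN value of VSMC lay below every pericyte value, and the other 3 lay above. Over pericytes Hey2 and Nrarp did not pass without the AVN/His library (edgeR adjusted p = 0.25 and 0.43), and Hey2 did not without the right library (0.075, edgeR). Nrarp also did not pass without the deepest SAN VSMC (log2 fold change 1.15, edgeR adjusted p = 0.053). Heyl, another target, had a log2 fold change of 0.20 ± 0.20 over pericytes (edgeR adjusted p = 0.64) and of 2.97 ± 0.22 over fibroblasts (edgeR adjusted p = 0.00014). Dlk1, a noncanonical ligand of immature cells, fell against both classes, at 145, 212, 288 and 185 in VSMC, against 860 to 1406 in pericytes and 770 to 1948 in fibroblasts (-2.61 ± 0.20, edgeR adjusted p = 0.00016, and -2.98 ± 0.19, edgeR adjusted p = 0.00011).

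Genes of vascular tone set VSMC apart from pericytes in part. Of 14 channel and calcium-handling genes tested, 5 rose and 1 fell against pericytes (median 0.88), beside 4.86% and 2.70% of all genes. Without the AVN/His library 1 rose, and 11 did without the SAN library. Of the receptors, Ramp1, the partner that turns the calcitonin-like receptor into a receptor for the vasodilator CGRP, stood at 102, 258, 185 and 203 CPM in VSMC, against 2.36, 15.6, 3.50 and 4.18 in pericytes (log2 fold change 4.64 ± 0.33, edgeR adjusted p = 0.00011). It passed without each library in turn. Its receptor Calcrl, chosen after its values were seen, stood at 0, 46.4, 144 and 113 in VSMC, against 21.3, 44.1, 52.4 and 53.3 in pericytes (0.33 ± 0.44, edgeR adjusted p = 0.76). Of 17 receptors and kinases tested 4 rose and none fell over pericytes (median 0.03), beside 4.86% and 2.70% of all genes. In this list 2 rose without the AVN/His library and 2 fell without the SAN library. Ednra, the endothelin A receptor, had a log2 fold change of 0.03 ± 0.26 (edgeR adjusted p = 0.97).

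Kcnmb1, the smooth muscle subunit of the large-conductance calcium-activated potassium channel, stood at 33.9, 87.0, 61.8 and 54.2 in VSMC, against 9.46, 14.3, 29.7 and 26.1 in pericytes and 0.192, 0.450, 0 and 0 in fibroblasts. The VSMC values lay above both classes, but the SAN value was only slightly above the highest pericyte value, 29.7, and the left value rests on 3 UMIs. Over pericytes the call was lost without the AVN/His library (log2 fold change 1.81 ± 0.39, edgeR adjusted p = 0.019, against 0.31 without it). Over fibroblasts Kcnmb1 passed without each library in turn (7.60 ± 0.56, edgeR adjusted p = 0.00014). Casq2, calsequestrin of the sarcoplasmic reticulum, stood at 19.4, 72.5, 392 and 257 in VSMC, against 2.36, 32.4, 33.2 and 37.6 in pericytes (2.10 ± 0.35, edgeR adjusted p = 0.0059, and 0.057 without the right library). Among receptors, Olfr558, an olfactory receptor gene found in vascular smooth muscle, stood at 19.4, 148, 206 and 162 in VSMC, against 9.46, 60.9, 35 and 44.9 in pericytes and 0 to 0.225 in fibroblasts. Its log2 fold change was 1.48 ± 0.25 over pericytes (edgeR adjusted p = 0.0057, and 0.091 without the AVN/His library). Abcc9, the sulfonylurea receptor that pairs with the channel encoded by Kcnj8, was the channel gene that fell, at 58.1, 37.7, 61.8 and 58.7 in VSMC, against 194, 397, 383 and 486 in pericytes (-2.80 ± 0.31, edgeR adjusted p = 0.00061). Since VSMC had to hold 0 and pericytes at least 1 UMI of Kcnj8, the fall of its partner is not independent of the rules.

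**Figure D3:**
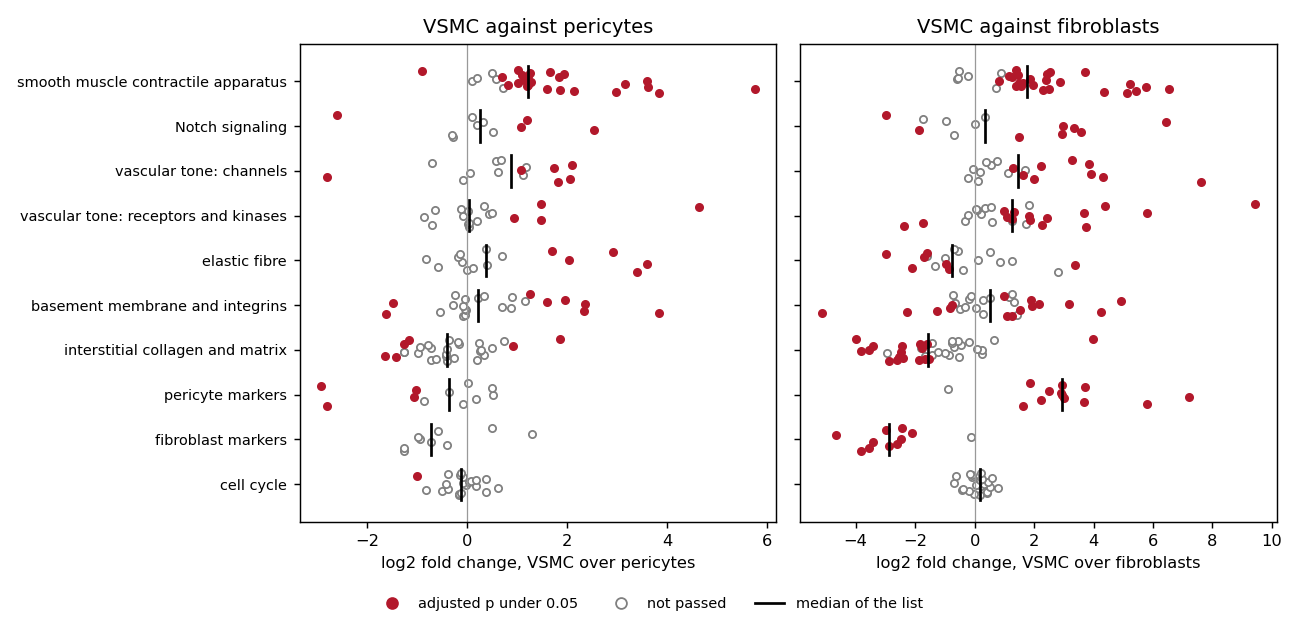
Log2 fold changes of the genes of 10 lists in VSMC over pericytes (left) and over fibroblasts (right); red points passed at an adjusted p under 0.05, open points did not, and black bars are list medians. Contractile genes have a median of 1.22 and 1.75, pericyte markers of -0.37 and 2.93, and fibroblast markers of -0.74 and -2.89.

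The markers of pericytes separated VSMC from fibroblasts more than from pericytes. Pericytes were chosen for Kcnj8 and Pdgfrb, so a fall of markers expressed with these genes is not independent of the rules. Of 11 pericyte markers tested against pericytes none rose and 4 fell (median -0.37), beside 4.86% and 2.70% of all genes. The 4 were Abcc9, the collectin Colec11, and the mitochondrial genes Higd1b and Cox4i2. Of these markers 2 fell without the AVN/His library and 8 without the SAN library. Against fibroblasts 12 of 13 rose and none fell (median 2.93; 6 rose without the AVN/His library), beside 5.72% of all 9243 genes that rose and 4.62% that fell (10.3% in either direction). Rgs5, a regulator of G protein signaling often used to mark pericytes, stood at 1031, 1381, 2267 and 2103 CPM in VSMC, against 964, 1873, 2131 and 2021 in pericytes and 11.1 to 55.6 in fibroblasts. VSMC and pericytes overlapped (-0.08 ± 0.19, edgeR adjusted p = 0.88), and this gene did not tell them apart. Of genes outside the lists, Cygb, the globin of stellate and mural cells, stood at 33.9, 37.7, 0 and 49.6 in VSMC, against 428, 671, 624 and 796 in pericytes (-3.96 ± 0.23, edgeR adjusted p = 5.5e-05). Cpa1, a carboxypeptidase, stood at 4.84, 8.70, 41.2 and 18.1 in VSMC, against 109, 264, 879 and 461 in pericytes (-4.74 ± 0.29, edgeR adjusted p = 5.9e-05). Pid1, the imprinted gene Mest, Vstm4, Nostrin, the chloride cotransporter gene Slc12a2 and Ifitm3 fell by log2 fold changes between -3.73 and -2.06, and these 8 genes passed without each library in turn.

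Against fibroblasts, 24 of 30 contractile genes tested rose and none fell, beside 5.72% and 4.62% of all genes. Their median was 1.75, against -0.05 over all genes, and 12 rose without the AVN/His library. Lmod1 stood at 2.68, 2.70, 0 and 0 CPM in fibroblasts, Cnn1 at 9.59, 11.5, 5.25 and 1.74, Mylk at 14.0, 18.5, 24.7 and 11.1, and Actg2 at 37.2, 14.9, 34.5 and 11.1, all below the VSMC values given above. Their log2 fold changes were 6.53 ± 0.47, 5.12 ± 0.34, 5.44 ± 0.47 and 5.75 ± 0.37, and all 4 passed without each library in turn. Of 22 regulators of contractile genes 6 rose and 1 fell over fibroblasts (0 and 0 without the AVN/His library), beside 5.72% and 4.62% of all genes. Against pericytes 18 were tested, of which 1 rose, Fhl1, and 1 fell, Ebf1 (median 0.40), beside 4.86% and 2.70% of all genes. Over pericytes 0 rose and 0 fell without the AVN/His library, and 5 rose and 2 fell without the SAN library. Myocd, the coactivator of serum response factor that switches on smooth muscle genes, stood at 9.68, 34.8, 20.6 and 54.2 in VSMC, against 0.348 to 1.15 in fibroblasts (4.90 ± 0.68, edgeR adjusted p = 0.0025, and 0.065 without the AVN/His library). Its SAN and left values lay under the level of 3 UMIs in those VSMC, 14.5 and 61.8 CPM. Myocd was too low for the test against pericytes, where it stood at 2.36, 3.89, 1.75 and 3.13. Mef2c, another muscle transcription factor, stood at 218, 757, 1010 and 1088 in VSMC, against 376, 378, 423 and 487 in pericytes and 54.0 to 76.5 in fibroblasts. The SAN value of VSMC was below all pericytes and the other 3 were above (0.56 ± 0.30, edgeR adjusted p = 0.37).

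Fibroblast markers were the counterpart. Of 11 markers tested none rose over fibroblasts and 10 fell (median -2.89, and 2 fell without the AVN/His library), beside 4.62% of all genes that fell. Fibroblasts were chosen for Tcf21 and Pdgfra, so the fall of markers expressed with these genes is not independent of the rules. Of 9 tested against pericytes none rose or fell (median -0.74). Without the SAN library 1 of these rose and 5 fell, and without the deepest SAN VSMC 1 rose and 3 fell. Dpep1, a membrane dipeptidase, stood at 9.68, 2.90, 0 and 0 CPM in VSMC, against 206, 89.1, 23.2 and 13.9 in fibroblasts (-4.65 ± 0.44, edgeR adjusted p = 0.00043). Dcn, the collagen-binding proteoglycan decorin, stood at 683, 418, 0 and 0 in VSMC, against 4086, 3618, 2383 and 2956 in fibroblasts (-3.81 ± 0.79, edgeR adjusted p = 0.016, and 0.13 without the AVN/His library). In the SAN library 97 of its 141 VSMC UMIs came from the deepest cell, without which Dcn stood at 275 there. Itm2a, Bicc1, Slc38a5, an amino acid transporter, and Vcam1 fell by log2 fold changes between -5.29 and -2.87 and passed without each library in turn. Genes with the lowest p among those that rose over fibroblasts also included Reln, the glycoprotein reelin, at 9.68, 119, 144 and 208 in VSMC, against 0.575 to 9 in fibroblasts (6.34 ± 0.42, edgeR adjusted p = 0.00011), and Hspb2, a small heat shock protein of muscle, at 160, 241, 268 and 302 against 1.5 to 13.5 (4.35 ± 0.28, edgeR adjusted p = 0.00011). The SAN value of Reln lay under the level of 3 UMIs in SAN VSMC, 14.5 CPM.

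Ligands, receptors, ephrins and junction genes of the vessel wall formed another list. Of its 20 genes tested against pericytes, 8 rose and 1 fell (median 0.88), beside 4.86% and 2.70% of all genes. Without the AVN/His library 2 rose and 0 fell. Of 15 genes of TGF-beta and BMP signaling 4 rose and none fell over pericytes (median 0.37). In that list 2 rose without the AVN/His library, and 9 rose and 2 fell without the SAN library. Tgfb2 stood at 213, 232, 165 and 262 CPM in VSMC, against 73.3, 57.0, 50.7 and 46.0 in pericytes (2.06 ± 0.21, edgeR adjusted p = 0.0005). Tgfb3, a second ligand of the family, stood at 77.5, 125, 165 and 298 in VSMC, against 21.3, 33.7, 14.0 and 18.8 in pericytes (2.72 ± 0.38, edgeR adjusted p = 0.0021). Neither ligand overlapped pericytes. Ctgf, a matricellular growth factor, and Slit3, a ligand of Robo receptors, rose by 2.64 and 2.76 (Slit3 was too low to be tested without the AVN/His library), and Igf1, the insulin-like growth factor, fell by 2.94 on the log2 scale (edgeR adjusted p = 0.058 without the AVN/His library). Against fibroblasts 11 of 41 genes of the vessel wall list rose and 10 fell (median 0.22). Of 27 TGF-beta and BMP genes 2 rose and 6 fell (median -0.36), beside 5.72% of all genes that rose and 4.62% that fell. Among those that rose, Pdgfa, a ligand of the platelet-derived growth factor receptors, stood at 131, 250, 268 and 311 in VSMC, against 5.92 to 9.97 in fibroblasts (4.65 ± 0.33, edgeR adjusted p = 0.00013). Efnb2, the arterial ephrin, stood at 53.3, 98.6, 124 and 81.2, against 0.750 to 3.83 (4.41 ± 0.35, edgeR adjusted p = 0.00018). Of 21 regional transcription factors tested against fibroblasts 5 rose and 4 fell, beside 5.72% and 4.62% of all genes. Tbx2, a T-box repressor, was 1 that rose, by 3.91 ± 0.40 (edgeR adjusted p = 0.00064), with 38.7, 102, 165 and 181 in VSMC.

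Matrix genes fell into separate groups. Over all genes, 4.86% rose and 2.70% fell against pericytes, and 5.72% rose and 4.62% fell against fibroblasts. Of 15 elastic fibre genes tested against pericytes 5 rose and none fell (median 0.37; 3 rose without the AVN/His library and 8 without the right library), and against fibroblasts 1 of 18 rose and 6 fell (median -0.77; 2 fell without the AVN/His library and 10 without the SAN library). Fbln5, fibulin 5, which guides elastin onto microfibrils, stood at 1036 and 1166 CPM in VSMC of the SAN and AVN/His regions and at 0 and 0 in the left and right, against 63.8, 128, 3.50 and 0 in pericytes. Its fold over pericytes passed without each library in turn (3.59 ± 0.28, edgeR adjusted p = 0.00027), and that over fibroblasts did not (3.38 ± 0.55, edgeR adjusted p = 0.0053, and 0.19 without the AVN/His library). Lox, which cross-links elastin and collagen, stood at 261, 154, 41.2 and 27.1 in VSMC, against 40.2, 22.0, 1.75 and 1.04 in pericytes (2.92 ± 0.29, edgeR adjusted p = 0.00044) and 148, 92.0, 33.7 and 43.2 in fibroblasts (0.51 ± 0.27, edgeR adjusted p = 0.31). Of 23 basement membrane and integrin genes 6 rose and 2 fell over pericytes (median 0.22; 1 and 0 without the AVN/His library), with the laminin chain Lama5 at 38.7, 31.9, 20.6 and 63.2 in VSMC, against 7.09, 3.89, 0 and 0 (3.83 ± 0.69, edgeR adjusted p = 0.0086). Of 29 interstitial matrix genes 2 rose and 4 fell over pericytes (median -0.41; 1 and 0 without the AVN/His library, 3 and 10 without the SAN library, 2 and 7 without the deepest SAN VSMC), and of 36 tested against fibroblasts 1 rose, the adhesive glycoprotein Spon1, and 16 fell (median -1.58; 2 fell without the AVN/His library). Spon1 stood at 203, 122, 103 and 67.7 in VSMC, against 44.9, 37.6, 5.24 and 21.9 in pericytes and 4.87 to 12.3 in fibroblasts, and passed both tests without each library in turn.

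VSMC of the 4 regions differed in elastin and other matrix genes. Each region is 1 library, so these values have exact Poisson intervals for counting error and no test, and region, animals and library cannot be told apart. Eln, the precursor of elastin, stood at 10651 (10211 to 11106) CPM in SAN VSMC and 5498 (5253 to 5751) in AVN/His VSMC, against 227 in left and 18.1 (4.92 to 46.2) in right VSMC, or 2200, 1895, 11 and 4 UMIs. The right value was the lowest and lay below that of the right pericytes (26.1) and fibroblasts (77.6). The ratio of SAN to right VSMC was 590 (230 to 2168), that of AVN/His to right 305 (119 to 1119), and that of SAN to AVN/His 1.94 (1.82 to 2.06). Without the deepest cell the SAN value was 13223. In the test against pericytes Eln had a log2 fold change of 3.41 ± 0.71 (edgeR adjusted p = 0.016), carried by the SAN and AVN/His libraries, where pericytes held 437 and 420, and it did not pass without the AVN/His library (0.35, edgeR), without the block (0.21, edgeR) or with DESeq2's Wald test (adjusted p = 0.26).

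Other genes, most of them of the matrix, were also higher in SAN and AVN/His VSMC than in left and right VSMC. The 16 fibroblast markers moved with them in the same sums (6759, 2486, 433 and 636 CPM by region, and 4849 in SAN VSMC without the deepest cell), and their part in these differences was not tested. Fbln5 was at least 76.5-fold higher in SAN and 86.1-fold higher in AVN/His VSMC than in right VSMC, where 0 UMIs put it under a floor of 13.5 CPM (3 UMIs in that library). Mfap4, a microfibril protein, stood at 639, 467, 0 and 0, at least 47.2-fold and 34.5-fold higher in SAN and AVN/His than in right VSMC. Mgp, the matrix Gla protein that inhibits calcification, stood at 1114, 1541, 165 and 90.3, and Col1a1, a chain of type I collagen, at 2203, 554, 41.2 and 31.6. Of the SAN UMIs of Col1a1, 33.8% came from 1 cell, and without the deepest cell its SAN value was 1878. Sost, the Wnt inhibitor sclerostin, stood at 121, 270, 0 and 0, at least 8.94-fold and 19.9-fold higher than in right VSMC, and Itga8, an integrin of smooth muscle, at 150, 136, 20.6 and 13.5 (11.1-fold, 3.46 to 56.7, SAN over right). The transcription factor Gata6 stood at 165, 183, 0 and 18.1. Eln also differed by region in the other classes, with 437, 420, 8.74 and 26.1 in pericytes, 486, 512, 112 and 77.6 in fibroblasts and 105, 300, 0 and 2.26 in macrophages. Macrophages should not make elastin, and the part of free RNA or doublets in the Eln values of any class was not tested.

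**Figure D4:**
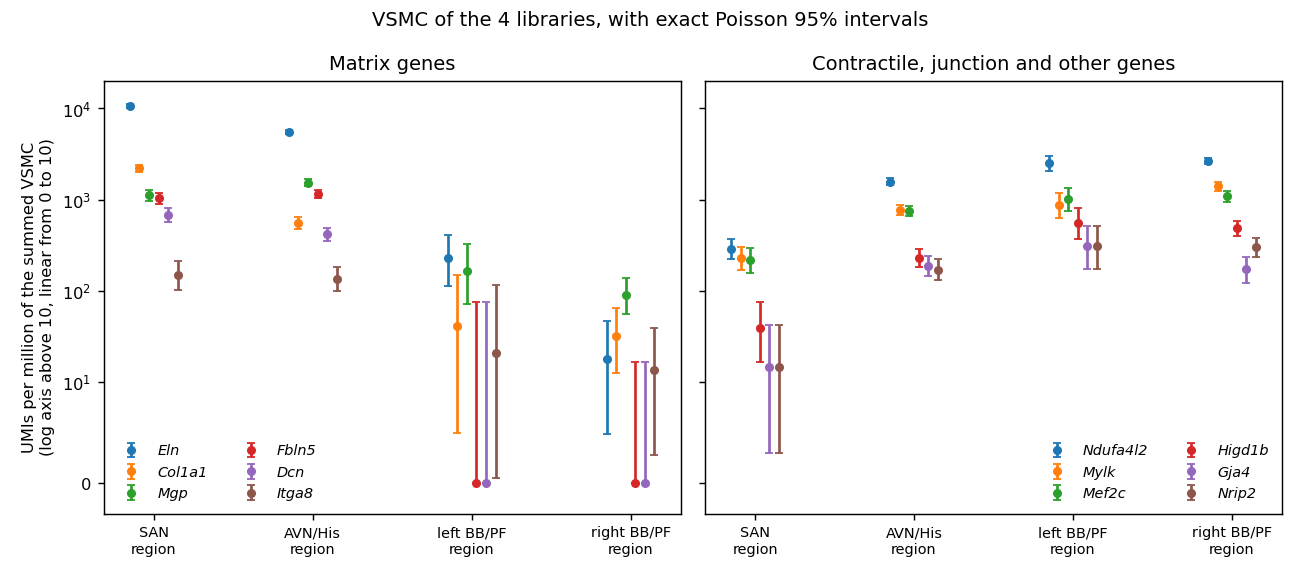
CPM (log axis above 10) of 12 genes in the summed VSMC of each library; bars are exact Poisson 95% intervals, which cover counting error only. Matrix genes (left) are high in the SAN and AVN/His libraries, with Eln at 10651 and 5498 against 18.1 in the right one, and the genes on the right are lowest in the SAN library, with Ndufa4l2 at 290 against 2663.

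Another set of genes ran the other way, lowest in SAN VSMC. Gja4, the arterial gap junction protein connexin 37, stood at 14.5 in SAN VSMC, against 189, 309 and 171 in AVN/His, left and right VSMC (SAN over right 0.0847, 0.0167 to 0.267). Ndufa4l2, a mitochondrial subunit-like gene high in mural cells, stood at 290, 1570, 2493 and 2663 (0.109, 0.0822 to 0.142). Mylk had a SAN to right ratio of 0.161 (0.116 to 0.219), Mef2c of 0.20 (0.142 to 0.276), Casq2 of 0.0753 (0.0198 to 0.204) and Nrarp of 0.201 (0.127 to 0.307). Plce1, a phospholipase C, and Nrip2 and Rasgrp2, the last an activator of Rap1, were at 3 UMIs each in SAN VSMC, or 14.5 CPM, against 148 to 309 in the others. The rule genes themselves differed little by comparison, with SAN to right ratios of 0.580 for Myh11, 0.634 for Acta2 and 0.788 for Tagln, and Cnn1 (1.42, 0.954 to 2.13), Lmod1 (0.776, 0.484 to 1.23) and Jag1 (1.31, 0.765 to 2.27) had intervals that include 1. Gja4 and Higd1b were also low in pericytes of the SAN library, at 7.09 against 53.3 to 64.7 and at 87.5 against 580 to 754 in the others, so the order is not particular to VSMC.

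Single cells showed how the elastin signal was spread. An Eln UMI was found in 23 of 24 SAN, 27 of 44 AVN/His, 2 of 7 left and 4 of 29 right VSMC, and none of the 4 right cells held more than 1. Thinned to 3000 UMIs the shares were 95.8, 56.8, 28.6 and 6.90%, against 6.80, 6.56, 0 and 1.92% of macrophages. The median level was 112 UMIs per 10000 in SAN and 2.95 in AVN/His cells, and the maximum 433 and 355. AVN/His cells therefore ranged from 0 to levels as high as most SAN cells, and no single cell held more than 13.9% of the Eln UMIs of either library. Fbln5 was found in 19 of 24 SAN and 17 of 44 AVN/His VSMC, and 0 of 29 right VSMC, which allows up to 11.9% of cells with a UMI (exact 95% limit) and sets no limit on the cells that express the gene.

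Eln and Gja4 were found together in 14 of the 104 VSMC. Of the 104, 49 held a Gja4 UMI and 55 did not; Eln had a median of 0 per 10000 in the 49 and of 45 in the 55. By region, cells with both numbered 0, 11, 1 and 2 in the SAN, AVN/His, left and right libraries, those with Eln alone 23, 16, 1 and 2, and those with Gja4 alone 1, 11, 4 and 19. Much of this follows the regions. Within the AVN/His library, where both kinds occurred, Eln had a median of 0.425 in the 22 cells with Gja4 and 6.99 in the 22 without, and none of the 22 with Gja4 exceeded 90.8, against 355 in those without. Ndufa4l2 was missing in 19 VSMC, 13 of 24 in the SAN and 6 of 44 in the AVN/His library, and all 19 held Eln (median 183). All 36 cells with Fbln5 held Eln (median 155). Depth of the single cells differs and shapes such counts, so they are given as a description.

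**Figure D5:**
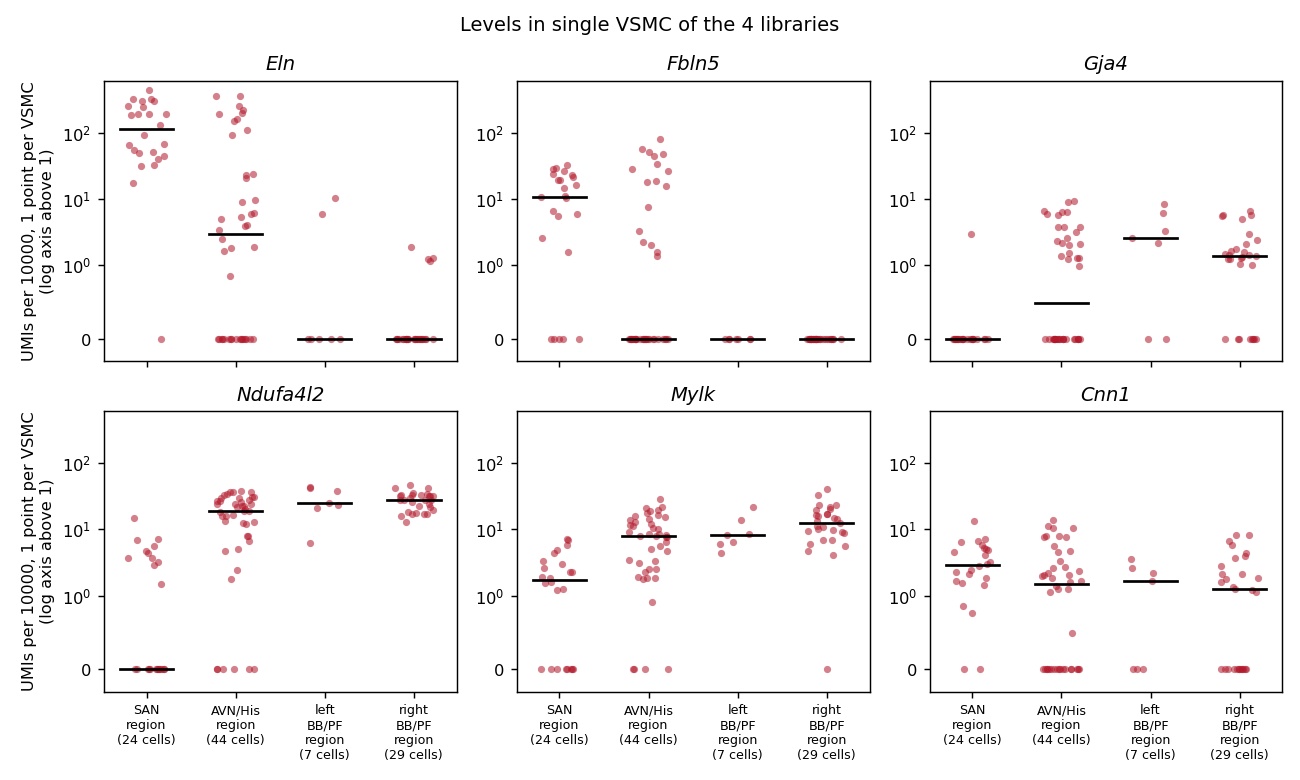
UMIs per 10000 (log axis above 1) of 6 genes in each VSMC, by library; each point is 1 cell and black bars are medians. Eln spans 0 to 433 in SAN and 0 to 355 in AVN/His cells but stays at or under 1.89 in right cells, while Ndufa4l2 is found in all 29 right cells and in 11 of 24 SAN cells.

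Genes were also ranked by their ratio to the next library, for which no test was possible. In this ranking a value under 3 UMIs was raised to the level of 3 UMIs in its library, which is 61.8 CPM in left VSMC. Where the next value was such a floor, the ratio is a lower bound. In SAN VSMC the 4 genes with the highest ratio to the next library were the hemoglobins Hbb-bt, Hba-a1, Hbb-bs and Hba-a2, but 4130 of the 4361 hemoglobin UMIs of these 24 cells came from 1 cell. With cells holding markers of another type left out, the 5 highest in SAN VSMC were Myl7, Grp, Ccnb1, Socs3 and Cxcl1, at 4.20 to 5.36 times the next library. Myl7, the atrial myosin light chain, stood at 329 CPM, against 49.3, 0 and 4.51 in the others; macrophages of the same libraries, which should lack it, held 465, 23.2, 9.54 and 6.78, so the SAN level of VSMC was under that of macrophages. Myl2, the ventricular light chain, was at 0 in SAN VSMC, against 160, 515 and 302 in the others. Grp, the gastrin-releasing peptide, chosen after its values were seen, stood at 247 in SAN VSMC, from 13 of 24 cells, and at 5.80, 0 and 0 in the others. In the SAN library a Grp UMI was found in 0 of 45 pericytes, 2 of 632 fibroblasts and 0 of 147 macrophages. A UMI of any of 8 Hox genes, anterior-posterior patterning factors, was found in 15 of 24 SAN, 5 of 44 AVN/His, 0 of 7 left and 0 of 29 right VSMC. In the SAN library it was found in 5 of 45 pericytes, 63 of 632 fibroblasts and 7 of 147 macrophages. After thinning to 3000 UMIs it was found there in 4 of 24 VSMC, 3 of 45 pericytes, 25 of 632 fibroblasts and 1 of 147 macrophages.

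In AVN/His VSMC the genes highest against the next library were Igsf3, Ifitm3, Mir143hg, the host of smooth muscle microRNAs, Sost and Gpc3, a glypican, at ratios of 2.08 to 2.44. Those of Igsf3 and Mir143hg were set against the floor of the left library. Mir143hg stood at 142 in AVN/His VSMC, against 19.4, 0 and 45.1 in SAN, left and right VSMC. The lowest there was Xist, at 0, against 252, 845 and 108 in the others. Xist is made from the inactive X of female cells, and over all kept barcodes it was found in 14.8% (SAN), 0.461% (AVN/His), 86.6% (left) and 19.7% (right), so the sex of the embryos and the region cannot be told apart. In right VSMC the 5 highest were Ntan1, Celf1, Pfkp, Rasgrp2 and Vps37b, at ratios of 1.85 to 1.98, and the lowest, after Eln, were Rab34, Rcn3, Hspb6 and Fabp4, a fatty acid binding protein. Pfkp, the platelet type of phosphofructokinase in glycolysis, stood at 43.6, 84.1, 103 and 194 in VSMC, against 18.9, 14.3, 31.5 and 13.6 in pericytes, and rose over them (2.83 ± 0.40, edgeR adjusted p = 0.0021).

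Of 21 cell cycle genes tested against pericytes none rose and 1 fell (median -0.13), beside 4.86% and 2.70% of all genes. The 1 was Tyms, an enzyme of thymidylate synthesis. In this list 7 fell without the SAN library and 2 without the deepest SAN VSMC. Against fibroblasts none of 22 passed (edgeR), beside 10.3% of all genes in either direction. At least 2 of 5 cycling genes were found, after thinning to 3000 UMIs, in 25% (95% interval 9.77 to 46.7), 22.7% (11.5 to 37.8), 14.3% (0.361 to 57.9) and 24.1% (10.3 to 43.5) of VSMC, against 26.7, 29.2, 30.6 and 23.0% of pericytes and 19.0, 21.0, 36.8 and 26.4% of fibroblasts. The unthinned shares in VSMC were 37.5, 25, 14.3 and 31.0%. Intervals of this width cannot show a difference of this size. Of 14 immediate early genes, which dissociation of tissue can induce, none passed against pericytes (median 0.70; 7 rose without the SAN library and 2 without the deepest SAN VSMC), and the 15 listed genes summed to 4929, 2895, 3689 and 2279 CPM in VSMC, against 4621, 1337, 1334 and 1977 in pericytes and 8502, 2820, 2955 and 3992 in fibroblasts. Against fibroblasts 1 of the 15 fell (median -0.43), beside 4.62% of all genes. Without the AVN/His library 0 of these genes fell, and 3 did without the deepest SAN VSMC. Their part in the other differences was not tested.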

How the data were processed

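Per the labels, the authors sequenced 10x Genomics 3' libraries and made UMI counts with Cell Ranger on mm10 (version not given in the sources used here); the deposited values are whole, unnormalized counts per gene and cell. The 4 libraries held 6342, 6001, 5452 and 5010 barcodes and 49328589 to 58029660 UMIs, and barcodes with at least 500 genes were kept. Pericytes had a muscle score under 1.5, Kcnj8 and Pdgfrb at least 1 UMI, Myh11 at most 1, and Tcf21 and Pecam1 0; fibroblasts had Tcf21 and Pdgfra at least 1, Myh11 at most 1, and Kcnj8 and Pecam1 0; macrophages had C1qa at least 2, Csf1r at least 1 and Myh11 at most 1. No doublets were removed; Scrublet's automatic threshold marked 7 cells each in the left and right libraries and had not worked there, so a score of 0.2 was used as an alternative.

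Counts were summed per library and class and tested in R 4.3.3 with edgeR 4.0.16 and limma 3.58.1 by TMM, filterByExpr, glmQLFit and glmQLFTest, library as a block, Benjamini-Hochberg at 0.05 over all genes outside the rules (4857 against pericytes, 9243 against fibroblasts). SE is the log2 fold change divided by the square root of F. A library gives both classes, which pairs the sums: deviations of same-library sums correlated at 0.326, 0.263 and 0.407 (pericytes) and 0.176, 0.232 and 0.176 (fibroblasts). Script steps were tested on simulated data. Cells were handled in Python 3.11.15 with pandas 2.3.3, Scrublet was run in scanpy 1.11.5, intervals came from scipy 1.17.1 with numpy 2.4.6, and figures from matplotlib 3.10.9. Intervals are exact, at 95%, and cover counting error only.

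Named genes are those of the rules, per test the 10 genes of lowest p that rose and the 10 that fell, up to 4 highest and 4 lowest folds that passed per list, and the 5 most extreme by region; others that the text names were chosen after their values were seen. Members and lists were chosen with earlier results of these data known. Alternatives were the Wald test of DESeq2 1.42.0, its size factors, rule genes out of library sizes, no filter, no block, each library left out, Scrublet or other-type marker cells out, thinning, equal cell numbers, stricter and looser rules, at least 1000 genes and 2000 UMIs, and, added after the data were seen, the left library kept in and the deepest SAN VSMC out.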

Additional observations from a re-analysis of the deposited data

How the results depend on the processing

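Of 67 named genes that passed against pericytes, 31 kept their call in every alternative that tested them, and of 88 against fibroblasts 40 did (23 and 29 of these were tested in all 19 alternatives, the others in 15 to 18); the AVN/His library, with the most VSMC, mattered most, since 30 and 45 lost theirs without it. Against pericytes 236 genes rose and 131 fell; these counts were 130 and 58 with DESeq2's Wald test, 428 and 337 with no filter, 137 and 77 with no replicate block (library), and 136 rose with thinned cells. Leaving out 1 library gave 76 to 503 and 33 to 375, the lowest without AVN/His and the highest without SAN. Against fibroblasts 529 rose and 427 fell; 342 rose with thinned cells, 224 rose and 196 fell with equal cell numbers, 253 fell with the Wald test and 884 with no filter, and leaving out 1 library gave 121 to 630 and 58 to 504. Shares of VSMC moved to 0.0843% (SAN), 0.337% (AVN/His) and 0.367% (right) of kept barcodes under the stricter rule, and to 0.994% (SAN) and 1.19% (AVN/His) under the looser one. Eln in SAN VSMC was 18662 CPM under the stricter and 10153 under the looser rule, 13576 without cells with markers of another type and 13223 without the deepest cell; in AVN/His VSMC it was 2669, 6217 and 5135 in the first 3 of these, and 4969 with any Kcnj8. Under the stricter rule Gja4 was 0 in SAN and 262 in AVN/His VSMC. The values of Eln and Gja4 under this rule rest on 5 SAN and 19 AVN/His VSMC. Folds that turned, none of them called in the main test, were those of Actc1 (-0.87 to 0.70 without 1 library, 1.08 under the stricter rule), Ccnb1 (-1.0 to 1.15 without 1 library), Hba-a2 (-2.40 to 2.14 without 1 library, -2.93 under the stricter rule) and Xist (-2.30 to 1.61 without 1 library) against pericytes, and of Hba-a2 (-2.04 under the stricter rule) and Hbb-bt (-2.68 to 1.14 without 1 library) against fibroblasts; the cause was not tested. The stricter rule leaves 2 libraries and 1 residual degree of freedom. The left library, with 7 VSMC, has a floor of 61.8 CPM (3 UMIs), which limits what can be said of low genes there.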
